A study of Mus musculus with 4 samples.

Results

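The gene-poor stretch of mouse chromosome 4 that holds Ptprd was examined by array comparative genomic hybridisation, which sets the DNA copy number of a tumour against that of a reference DNA. Its members were all 804 non-control probes whose midpoint lay between 63700000 and 80000000 on chromosome 4 of build mm9, out of 170305 probes on chromosomes 1 to 19, X and Y. The bounds enclose 16.3 Mb and were set because the tumour-to-pool ratios there were low, so every ratio in the stretch is given as a description and not as a test of it. The rest of chromosome 4 carried 9172 probes and chromosomes 1 to 19 together 161460. All 804 members passed, since no filter on low values was used.

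The samples were 4 liver tumours, numbered 239, 240, 244 and 252 in the labels, each from 1 male FAH-/- Trp53-/- mouse. The enzyme made from Fah ends the breakdown of tyrosine, and its loss lets toxic products build up in the liver. Trp53 codes for p53, which guards against tumours. NTBC, a drug given at 7.5 mg/L in drinking water, stops tyrosine breakdown further up and keeps such mice alive, and these mice had been held for 6 months on 2.5% of that dose. The reference on every array was 1 pool of liver DNA from 3 male FAH+/+ Trp53+/+ littermates. No age and no share of tumour cells is given in the sources used here. Other tissue of the tumour mice was not analysed here, so a difference that a mouse carried in all its cells and one that arose in its tumour cannot be told apart.

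Ptprd encodes a receptor-type protein tyrosine phosphatase of the LAR family, with Ptprf and Ptprs as its closest relatives. The outer part of such a phosphatase binds partner proteins on neighbouring cells, mainly at synapses, and the inner part removes phosphate from tyrosines of substrates such as STAT3. The human counterpart lies in a region that is often deleted in tumours and is regarded as a tumour suppressor. Other genes of the stretch include Astn2, Pappa, Cdk5rap2, Tle1, Frmd3 and Kdm4c. The name gene-poor held in the probe annotation, with 23 gene names in the stretch, or 1.41 per Mb, against 9.07 per Mb in the rest of the chromosome and 7.46 per Mb on chromosomes 1 to 19. Of the probes, 53.7% carried a gene name in the stretch and 63.7% in the rest of the chromosome. Whether a probe lies in an exon, an intron or a UTR was not analysed here, since no mm9 annotation was used.

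Each value is the log2 ratio of tumour over pool signal, centred on the median of chromosomes 1 to 19 of its array. A value of 0 thus marks that median, and -1 would be the loss of 1 of 2 copies in every cell. A probe was called deep when its ratio was -0.7 or lower in all 4 tumours. A deep locus held at least 3 deep probes with at most 2 other probes between successive ones, and any other deep probe was called lone. The broad level is the median of the probes that were not deep. Since leaving out deep probes removes low values only, it raises a level by construction.

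The deepest members were single 60-base probes. They are printed because the lowest ratios of the stretch rest on them one by one, and capitals mark the longest unbroken run of A and T in each, or the first such run where several are equally long. The first 9 are the probes at -3 or lower in all 4 tumours, and the last 3 are the deep locus inside Ptprd. The letters are those of the array's design, in the files' own orientation, with mm9 positions.
chr4:66920371-66920430: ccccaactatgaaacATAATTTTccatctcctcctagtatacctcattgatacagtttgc
chr4:67171384-67171443: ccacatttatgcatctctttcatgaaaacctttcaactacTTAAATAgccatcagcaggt
chr4:67237787-67237846: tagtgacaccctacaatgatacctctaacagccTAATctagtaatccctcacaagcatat
chr4:70659930-70659989: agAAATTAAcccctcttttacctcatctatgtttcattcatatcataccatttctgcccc
chr4:71645248-71645307: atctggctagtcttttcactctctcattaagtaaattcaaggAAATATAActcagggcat
chr4:73679539-73679598 (Frmd3): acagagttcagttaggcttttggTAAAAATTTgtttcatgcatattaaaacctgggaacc
chr4:73866733-73866792: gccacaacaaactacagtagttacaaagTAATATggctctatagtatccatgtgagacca
chr4:76032757-76032816 (Ptprd): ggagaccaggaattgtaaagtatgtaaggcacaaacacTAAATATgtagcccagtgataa
chr4:76687187-76687246 (Ptprd): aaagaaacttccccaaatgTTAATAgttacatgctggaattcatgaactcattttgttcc
chr4:75901954-75902013 (Ptprd): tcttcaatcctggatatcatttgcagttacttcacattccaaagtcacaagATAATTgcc
chr4:75910952-75911011 (Ptprd): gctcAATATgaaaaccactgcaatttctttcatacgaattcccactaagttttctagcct
chr4:75926793-75926852 (Ptprd): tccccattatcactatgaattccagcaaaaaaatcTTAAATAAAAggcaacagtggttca
The base make-up of the deep probes was like that of the others. The median GC content was 36.7% in the 58 deep probes, in the 746 other probes of the stretch and over chromosomes 1 to 19, and the median length of the longest A and T run was 6 bases in each.

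Each array held 180880 spots and no dye swap was made, so a dye effect at a probe would appear in all 4 ratios. Between 98.8% and 99.9% of non-control spots were well above background in either colour, and the number of arrays, 4, limits the precision. Ratios of neighbouring probes differed more in the stretch than elsewhere on the chromosome, with a noise SD of 0.364, 0.379, 0.404 and 0.432 in tumours 239, 240, 244 and 252 against 0.247, 0.315, 0.340 and 0.359. The probes were also spaced wider, at a median of 15.0 kb against 10.8 kb. Their part in the results was not tested.

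The broad level of the stretch was a shallow dip, deeper in tumour 244 than in the others. Over the 746 probes that were not deep, the median ratio was -0.092 in tumour 239, -0.090 in tumour 240, -0.29 in tumour 244 and -0.088 in tumour 252. Tumours 239, 240 and 252 lay within a narrow range and tumour 244 lay below them. The mean over tumours was -0.14 ± 0.10 (SD, n = 4), and without tumour 244 it was -0.089. With all 804 probes the mean was -0.17 ± 0.099 (SD, n = 4). The commonest autosomal level, or mode, lay 0.105 above the median in tumour 244. In tumours 239, 240 and 252 it lay 0.015, 0.005 and -0.005 from the median. With the mode as centre, the broad level was -0.11, -0.094, -0.40 and -0.083 in tumours 239, 240, 244 and 252.

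Tumour 244 was low over the whole chromosome and not in the stretch alone. In the rest of chromosome 4 without its deep probes, the median was -0.00012 in tumour 239, -0.0011 in tumour 240, -0.20 in tumour 244 and 0.015 in tumour 252. Stretch minus rest was therefore nearly equal in the 4 tumours, at -0.092, -0.089, -0.090 and -0.10, with a mean of -0.093 ± 0.0067 (SD, n = 4). The SD of that difference was smaller than the SD of either level. The size depended on the background correction, since normexp on the raw signals gave a difference of -0.043 ± 0.017 (SD, n = 4). The mean broad level was then -0.077, from -0.040, -0.045, -0.22 and -0.0064 in tumours 239, 240, 244 and 252.

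The difference at the median was nearly equal in the 4 tumours, but the shape of the shift was not. At the 5th percentile of probe ratios the difference from the rest of the chromosome was -0.52, -0.46, -0.46 and -0.32 in tumours 239, 240, 244 and 252. At the 25th percentile it was -0.24, -0.17, -0.18 and -0.18, and at the 75th -0.055, -0.11, -0.12 and -0.14. At the 95th percentile it was 0.0060, -0.13, -0.13 and -0.13. In tumour 239 the highest probes therefore stood level with those of the rest of the chromosome, with a difference of -0.0068 at the 90th percentile. In the other tumours the upper probes were shifted down by about as much as the median.

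The bounds of the stretch did not mark a sharp step. In the 1 Mb just inside the low bound, 36 probes had medians of -0.18, -0.088, -0.32 and -0.20 in tumours 239, 240, 244 and 252, and 84 probes in the 1 Mb just outside had -0.011, -0.13, -0.28 and -0.047. In tumour 240 the inner side was the higher one. At the high bound the 25 inner probes had medians of -0.17, -0.16, -0.41 and -0.15, and the 49 outer probes 0.014, -0.080, -0.32 and -0.094. There the inner side was lower in all 4 tumours.

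The clearest feature of the stretch was the number of short deep places in it. Of its 804 probes, 58 were deep, or 7.21%, against 1.55% over chromosomes 1 to 19 and 1.26% in the rest of chromosome 4. Probes at 0.7 or higher in all 4 tumours numbered 4, or 0.498%, against 0.295% and 0.229% in the same 2 sets. A ratio below 0 in all 4 tumours was seen at 380 probes, or 47.3%, against 28.3% over chromosomes 1 to 19 and 32.6% in the rest of chromosome 4. All 3 counts use the ratios that led to the choice of the stretch and are given as descriptions.

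Most deep probes stood alone. Only 13 of the 58 formed 4 loci, 45 were lone, and 48 had a neighbour that was not deep on both sides. The lone share of the 2496 deep probes of chromosomes 1 to 19 is not given here. These counts are therefore not read as particular to the stretch. The median distance between successive deep probes was 142 kb. By their mean ratio over tumours, 43 lay between -1.5 and -0.7, 6 between -3 and -1.5 and 9 at -3 or lower. The median over the 58 was -1.08, -1.07, -1.38 and -1.04 in tumours 239, 240, 244 and 252, and tumour 244 was the lowest of the 4 at 43 of them. The SD between tumours at a deep probe had a median of 0.165, close to the 0.166 of the other probes of the stretch.

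The deep probes differed from the others in both colours. In the pool, their median log2 signal was 10.5 against 10.1 for the other probes of the stretch, and in the tumours it was 9.14 against 9.96. Their pool signal was thus the brighter and their tumour signal the dimmer of each pair. No pool spot of a deep probe missed the scanner's mark for well above background, while 5, 4, 4 and 4 tumour spots did in tumours 239, 240, 244 and 252. A probe picked for a low ratio tends to have a bright pool spot, so these values are a description too.

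The 4 deep loci were unequal in size and depth. The first, chr4:66720754-66920430, spanned 200 kb with 4 deep probes among 7 and no gene name, and its mean ratio was -1.20, -1.22, -1.42 and -1.14, or -1.25 ± 0.12 (SD, n = 4). Its 4 deep probes had means of -0.998, -1.15, -0.97 and -4.14, so 1 of them lay far below the rest and pulled the locus mean down. The 3 other probes averaged -0.49, so the locus was not low throughout. The second, chr4:67171384-67237846, was the deepest, with 3 of 3 probes deep over 66.5 kb and ratios of -3.65, -3.43, -3.88 and -3.68, or -3.66 ± 0.19 (SD, n = 4). One of its 3 probes gave tumour spots not well above background, and without that probe the mean was -2.25.

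The third locus, chr4:72485757-72690695, was the shallowest. It held 3 deep probes among 6 over 205 kb, without a gene name, and ratios of -0.82, -0.71, -1.001 and -0.63, or -0.79 ± 0.16 (SD, n = 4). The fourth, chr4:75901954-75926852, lay in Ptprd and was the shortest at 24.9 kb. Its 3 probes, the last 3 sequences above, were all deep, with mean ratios of -1.48, -1.45, -1.78 and -1.46, or -1.54 ± 0.16 (SD, n = 4). No locus formed in the rest of chromosome 4, and chromosomes 1 to 19 held 35 in all, 26 of them outside chromosome 12. The number in the stretch depended on the rule, with 11 loci for a deep threshold of -0.5, 2 for a threshold of -1, 2 when no other probe was allowed between deep ones and 9 with normexp.

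The 9 deepest probes were picked for a ratio of -3 or lower in every tumour, so their shared positions follow from that choice. One of the lowest was at 67171384, in the second locus, with ratios of -6.55, -6.06, -6.66 and -6.65. Its pool signal was 1748 to 1875 intensity units, and its tumour signal of 17.2 to 26.6 was not well above background on any array. Measured against the dimmest spots that were, the tumours stood at least 20.3-fold lower than the pool. The neighbours of this probe were far apart in level, at mean ratios of 0.90 and -1.35.

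The probe at 70659930 stood alone, and its bound was the larger one. Its ratios were -6.46, -6.25, -5.93 and -6.45, from a pool signal of 3814 to 4092 and a tumour signal of 44.0 to 68.9, or at least 44.5-fold lower in the tumours. Its neighbours had mean ratios of 0.53 and -0.50, so the low level ended within 55.9 kb and 30.0 kb of it. A similar single probe at 73866733, between Frmd3 and Kdm4c, had ratios of -4.19, -4.21, -4.96 and -4.19, or at least 11.5-fold lower, beside neighbours at -0.70 and -0.19. In Frmd3 itself the probe at 73679539 had -3.54, -3.60, -5.28 and -4.44, or at least 7.36-fold lower, and its neighbours were at -0.32 and -0.56.

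For the other 5, tumour signal was well above background on 3 or 4 arrays, so that the depth could be read. The probe at 66920371 closed the first locus with ratios of -3.96, -4.37, -4.25 and -3.98. The one at 67237787 closed the second with -3.17, -3.02, -3.40 and -3.02. The single probe of the transcript ENSMUST00000141030, at 71645248, had -3.43, -3.45, -3.69 and -3.46 beside neighbours at -0.64 and -0.62. Of the 18 neighbours of these 9 probes, 3 were deep and 9 had a mean above -0.5.

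Both deepest probes of Ptprd stood alone in their neighbourhood. The probe at 76032757 had ratios of -3.22, -3.21, -3.18 and -3.04, from a pool signal of 3899 to 4473 and a tumour signal of 457 to 487, and the probes on its sides were at -0.21 and 0.075. The probe at 76687187 had -4.67, -4.32, -4.21 and -4.51 beside neighbours at -0.81 and -0.12, with the tumour spot well above background on 3 of 4 arrays. At both positions the 4 tumours spread over less than 0.5 on the log2 scale.

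Of the 4 high probes, 2 lay in Ptprd. They had mean ratios of 0.95 ± 0.17 (SD, n = 4) at 76527734 and 1.20 ± 0.44 (SD, n = 4) at 77857177, the last Ptprd probe. The probe at 70767744, in the transcript ENSMUST00000143796, had the highest mean ratio of the stretch, 1.38, from 1.35, 1.41, 1.25 and 1.497. The fourth, at 67104037, had 1.01, 0.85, 0.80 and 0.95 and was the left neighbour of the deep probe at 67171384. High and deep probes thus stood side by side in places.

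In Ptprd as a whole, 17 of 177 probes were deep, or 9.60%, against 6.54% of the 627 probes of the stretch outside it. The mean over all Ptprd probes was -0.21, -0.25, -0.46 and -0.20 in tumours 239, 240, 244 and 252, or -0.28 ± 0.12 (SD, n = 4). The 17 deep probes averaged -1.59, -1.58, -1.78 and -1.57, and the other 160 had medians of -0.069, -0.098, -0.31 and -0.082. The latter were close to the -0.10, -0.087, -0.29 and -0.089 of the 586 other probes of the stretch outside the gene. Away from its deep probes, Ptprd therefore stood at the broad level of its surroundings, with a mean over tumours of -0.14 ± 0.12 (SD, n = 4) against -0.14 ± 0.098 (SD, n = 4).

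The deep probes of Ptprd were denser toward the low-coordinate end of the gene. Cut into 3 parts of equal length between its first probe at 75587703 and the end of its last at 77857236, the gene had 11 deep of 76 probes in the first part, 2 of 48 in the second and 4 of 53 in the third. The means over all probes of the parts were -0.36 ± 0.12, -0.21 ± 0.11 and -0.23 ± 0.13 (SD, n = 4). The first 8 deep probes fell within chr4:75832937-76111104, a run of 30 probes over 278 kb that was singled out after its values were seen. Probes near 0 lay between them. Those 8 averaged -1.81 ± 0.082 (SD, n = 4) and the 22 others among them -0.17 ± 0.16 (SD, n = 4).

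Other genes of the stretch differed in how far deep probes set their level. limma tested every gene against 0, with Benjamini-Hochberg adjustment at 0.05. Of the 14 genes with at least 3 probes it called 7 lower and 0 higher. Among all genes of at least 3 probes 10.8% were called lower, and among all genes 15.2% were called lower and 17.7% higher. At an unadjusted p under 0.05, 8 of the 14 were lower and 0 higher. Without deep probes limma called 3 of the 14 lower, against 12.9% of all genes that still had a probe, and 1 higher, ENSMUST00000143796. That share covers genes of any probe number, and no share is given for the higher call. Nothing is read from these counts, or from the calls of single genes of the stretch given below, since the stretch was chosen on the same ratios. Without tumour 240 the count was 3 as well, and Ptprd, at -0.29, was no longer among those called, nor were Astn2, Megf9 and Rasef. Of the 14 genes, 11 had a mean below 0 in all 4 tumours. No share over all genes is given here for that count or for the unadjusted one, and nothing is read from them.

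Frmd3, which encodes a FERM-domain protein that links membranes to the cytoskeleton, was the lowest of the 14 genes with at least 3 probes. Its 18 probes, 3 of them deep, averaged -0.53, -0.44, -0.71 and -0.52, or -0.55 ± 0.11 (SD, n = 4). Without the deep probes the mean was -0.26, and with only probes well above background it was -0.33. The transcript ENSMUST00000126187 had nearly the same level on 6 probes, -0.54 ± 0.093 (SD, n = 4), and -0.36 without its 1 deep probe. The transcript ENSMUST00000141428, at the low bound, had no deep probe among 6 and a mean of -0.33 ± 0.14 (SD, n = 4), or -0.19 and no call with normexp. These 3 were the genes that limma called lower also without deep probes.

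Astn2, which encodes astrotactin 2, a membrane protein of migrating neurons, was the second largest gene by probes. Its 103 probes had means of -0.14, -0.17, -0.37 and -0.15 in tumours 239, 240, 244 and 252, or -0.21 ± 0.11 (SD, n = 4), and 4 of them were deep. Its limma call was lost with each tumour left out in turn, with the mode as centre, with normexp and with the lowess correction. Pappa, whose product cleaves binding proteins of insulin-like growth factors, lies next to it and had no deep probe among 27, with a mean of -0.11 ± 0.14 (SD, n = 4), or -0.037 without tumour 244.

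Of the 14 genes, 3 besides ENSMUST00000126187 held 1 deep probe each and moved when it was left out. Rasef, which encodes a Rab-type GTPase, had -0.23 ± 0.051 (SD, n = 4) on 6 probes and -0.051 without the deep one. Megf9, which encodes a membrane protein with EGF-like repeats, had -0.28 ± 0.13 (SD, n = 4) on 10 probes and -0.18 without it, or -0.16 and no call with normexp. The transcript ENSMUST00000143796 held a deep and a high probe among only 3 and averaged -0.011 ± 0.16 (SD, n = 4). Without the deep probe it was at 0.48 and called higher, and with normexp at -0.43 and called lower, so it has no settled direction.

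The genes without deep probes ranged from the -0.33 of ENSMUST00000141428 to above 0. Tle1, a transcriptional corepressor of the Groucho family, had -0.13 ± 0.11 (SD, n = 4) on 9 probes, -0.088 without tumour 244, and -0.26 with normexp, where limma called it lower. Kdm4c, a histone demethylase, had -0.15 ± 0.14 (SD, n = 4) on 16, -0.062 with normexp and -0.085 without tumour 244. Brinp1, a gene of the nervous system, had -0.069 ± 0.13 (SD, n = 4) on 17, -0.17 with normexp, -0.10 without tumour 239 and -0.0091 without tumour 244. The transcript ENSMUST00000107365 had -0.22 ± 0.16 (SD, n = 4) on 6 probes, and 0.0044 with normexp.

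Cdk5rap2, which encodes a scaffold protein of the centrosome, was the only one of the 14 genes with a mean above 0. Its 19 probes had means of 0.18, 0.046, -0.072 and 0.16, or 0.080 ± 0.12 (SD, n = 4), and limma called it neither higher nor lower. With normexp the mean was -0.015. It was 0.050 with the mode as centre, 0.046 without tumour 239, 0.13 without tumour 244 and 0.053 without tumour 252.

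Of the 9 gene names with fewer than 3 probes in the stretch, Tlr4 and ENSMUST00000141030 stood lowest. Tlr4, the receptor for bacterial lipopolysaccharide, had a single probe at 66500580 with -0.54, -0.86, -0.98 and -1.01, which missed the deep threshold in tumour 239. Tlr4 was singled out after its values were seen. The other names in this group had means between -0.43 and 0.36.

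Divided into 1 Mb bins, the stretch gave 16 full bins, and all 16 had a mean below 0 in all 4 tumours. No share over all bins is given here for that count or for the unadjusted count below. limma called 11 of 16 lower, against 8.47% of 2538 bins on chromosomes 1 to 19 and X, and 2 of 16 when deep probes were left out, against 4.22%. As for the genes, nothing is read from these counts. Without tumour 239 limma called 0 of 16 after adjustment, with 13 at an unadjusted p under 0.05, and without tumour 240 it called 3.

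The bins were uneven, and less so once deep probes were left out. The lowest bin, from 67 to 68 Mb, had means of -0.57, -0.61, -0.80 and -0.56, and it holds the second deep locus. Its mean over tumours was -0.63 ± 0.11 (SD, n = 4), or -0.27 without its 4 deep probes. The next lowest, from 66 to 67 Mb and from 73 to 74 Mb, were at -0.41 ± 0.098 and -0.35 ± 0.10 (SD, n = 4), or -0.26 and -0.18 without deep probes. The highest bin was that from 69 to 70 Mb, at -0.091 ± 0.10 (SD, n = 4), which holds only part of Cdk5rap2. Next came that from 68 to 69 Mb, with no deep probe, at -0.11 ± 0.10 (SD, n = 4). The SD over the 16 bins was 0.131 with all probes and 0.0548 without deep ones. Leaving out deep probes raises the bins that hold them by construction, so this fall is only a description. Within a bin, the tumours differed by a median SD of 0.0274 once each tumour's own median was taken off.

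A level of -0.2 is a usual threshold for a lost segment. Once deep probes were set aside, few bins reached it in tumours 239, 240 and 252, but all did in tumour 244. Setting them aside raises bin means by construction. With all probes, 9, 8, 16 and 7 of 16 bins lay at -0.2 or lower in tumours 239, 240, 244 and 252, against 9.76%, 6.11%, 30.5% and 7.04% of autosomal bins. Without deep probes the counts were 2, 1, 16 and 1, against 6.57%, 3.02%, 28.0% and 4.02%. Bins that reached -0.2 in all 4 tumours numbered 7 with all probes and 0 without deep ones. Tumour 244 kept all 16, which goes with its low level over the rest of the chromosome.

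The tumours shared the fine pattern of the stretch beyond the deep probes. Over the 804 probes, Pearson's r between pairs of tumours was 0.91 to 0.95, and over the 746 probes that were not deep it was 0.72 to 0.86. The 4 arrays share the pool DNA, the probes and the dye orientation, so the correlation describes these arrays and is not a measure of shared tumour changes. Tumour 239 had the lowest r with each of the others.

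Set beside other autosomal pieces of the same length, the stretch was at the end of both scales. Chromosomes 1 to 19 gave 156 tiles of 16.3 Mb with at least 400 probes, the stretch included. It had the highest share of deep probes, 7.21%, where the others had a median of 1.22% and a highest value of 6.81%, on chromosome 12. It also had the lowest broad level relative to its own chromosome, -0.087, where the others lay between -0.071 and 0.10. By share of probes without a gene name it ranked 31. Both scales use the low ratios for which the stretch was picked, so neither rank is a finding.

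Relatives and partners of Ptprd elsewhere in the genome were called in both directions. Of 40 listed genes, 35 had probes, and limma called 5 lower and 4 higher, where 15.2% of all genes were called lower and 17.7% higher. The median of the 35 was -0.029 and that of all genes 0.024. Among 19 receptor-type phosphatases, 2 were called lower, both of the type found in secretory granules. These were Ptprn, on 2 probes, at -0.34 ± 0.18 (SD, n = 4, limma adjusted p = 0.0151), and Ptprn2 on chromosome 12, at -0.20 ± 0.089 (SD, n = 4, limma adjusted p = 0.0424). The closest relatives were not called, with Ptprf on the rest of chromosome 4 at -0.029 ± 0.086 and Ptprs at 0.053 ± 0.039 (SD, n = 4).

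Of 12 listed ligands that LAR phosphatases bind across the synapse, 7 had probes. Of these, 3 were called lower and 2 higher, where 15.2% of all genes were called lower and 17.7% higher. With so few genes, nothing is read from these counts. Lrfn5 on chromosome 12 had -0.37 ± 0.11 (SD, n = 4), Lrrc4b -0.36 ± 0.13 (SD, n = 4) on 3 probes and Il1rap, which also serves the interleukin receptor, -0.22 ± 0.12 (SD, n = 4). The 2 called higher were Slitrk2 and Slitrk4 on chromosome X, with 1 probe each and the highest ratio in tumour 252. Il1rapl1, also on chromosome X but with 151 probes, was not called. Its means were -0.031, -0.11, -0.28 and 0.84 in tumours 239, 240, 244 and 252. Among the proteins that bind the inner part, the exchange factor Trio on chromosome 15 was called higher at 0.44 ± 0.10 (SD, n = 4, limma adjusted p = 0.0029). Of the substrates and their pathway, the kinase Jak2 was called higher at 0.28 ± 0.14 (SD, n = 4, limma adjusted p = 0.0198). Stat3, the best known substrate, was at 0.17 ± 0.084 (SD, n = 4) and was not called (limma adjusted p = 0.0582).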

How the data were processed

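Genomic DNA of 4 liver tumours was hybridised against 1 pool on 2-colour Agilent arrays, with tumour in Cy5 and pool in Cy3 on all 4, per the labels. Spots were read by Agilent Feature Extraction 12.0.0, per the submitters' processing notes. The deposited processed intensity of each colour had, per the file headers, been background-subtracted and dye-normalised. The log10 ratio deposited with it and the authors' value table hold the same tumour over pool ratio, uncentred, with array medians of 0.0023, 0.00233, 0.00131 and 0.000212.

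From these deposited signals a log2 ratio was taken at each spot after 6575 control spots and 95 to 120 outlier spots per array had been dropped. Ratios were averaged per probe, and each array's autosomal median was subtracted. No loess or quantile step followed. The mm9 positions and gene names came from the files, and 14 of the 23 gene names of the stretch matched a RefSeq table of GRCm38.p6, used for symbols only. An intercept-only model in limma 3.58.1 (R 4.3.3), tested on simulated data, compared each gene, and each 1 Mb bin of 5 or more probes, with 0. Its p-values were adjusted by the Benjamini-Hochberg method. The pool counts as 1 control sample, so its own spread is left out. Every gene with at least 3 probes in the stretch, genes in deep loci and listed relatives of Ptprd were to be named. The stretch, the thresholds and the lists were chosen with earlier results of these data known. The tumours are separate mice on 1 slide, so no slide or scan could be tested as a batch. Where a tumour spot was not well above background on any array, the fold is a bound against the dimmest tumour spot that was (80.1 to 96.5 intensity units), per array. Alternatives covered centring, normexp background correction with an offset of 50, the authors' value table, probes well above background, a lowess correction, the deep and locus rules, the bounds, bin size and leaving out each tumour. The remaining work was done in Python 3.11.15 (numpy 2.4.6, pandas 2.3.3, statsmodels 0.14.6).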

Additional observations from a re-analysis of the deposited data

Results flagged for a closer look

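In 46 values of the stretch, its bins, loci, genes and deepest probes and the rest of chromosome 4, each tumour was set against the other 3 by Dixon's ratio. Tumour 244 stood apart as the lowest in 12 of them, and no other tumour did in any. Chance marks about 1 in 20 such groups of 4, and the 12 overlap in their probes. One of the 12 was the rest of chromosome 4, at -0.20 in tumour 244 where the others lay between -0.0011 and 0.015.

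The broad level of the stretch was -0.29 in tumour 244 and between -0.092 and -0.088 in the others. The deep locus inside Ptprd was at -1.78 against -1.48 to -1.45. Astn2 was at -0.37 against -0.17 to -0.14, and the transcript ENSMUST00000126187 at -0.68 against -0.50 to -0.48. The deep probe at 71645248 was at -3.69 against -3.46 to -3.43. The one at 73866733 was at -4.96 against -4.21 to -4.19, with tumour spots not well above background on any array. Of the 1 Mb bins, the one from 64 Mb was at -0.38, from 65 Mb at -0.35, from 68 Mb at -0.26, from 77 Mb at -0.41 and from 79 Mb at -0.46 in tumour 244. The other tumours lay at or above -0.25 in all 5 of these bins.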

How the results depend on the processing

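Averaged over tumours, the broad level stayed below 0 under every alternative run, from -0.17 with the mode as centre to -0.077 with normexp. With 1 tumour left out it ran from -0.16 to -0.089. With normexp the single tumours 239, 240, 244 and 252 were at -0.040, -0.045, -0.22 and -0.0064, so tumour 252 was close to 0. Stretch minus rest was -0.043 with normexp, -0.075 with lowess, -0.076 with deep probes defined at -0.5 and -0.11 at -1, and -0.094 to -0.087 with 1 tumour left out. Those thresholds gave 109 and 27 deep probes and 11 and 2 loci. Normexp gave 85 deep probes and 9 loci, and a probe called deep in at least 3 tumours gave 82 deep probes and 4 loci. With no allowed gap there were 2 loci, and leaving out 1 tumour gave 59 to 70 deep probes and 4 loci each time. The second locus was at -2.52 with normexp, against -3.66. Bins called lower by limma numbered 7 with the mode as centre, 2 without deep probes, 6 of 8 at 2 Mb and 0 to 14 with 1 tumour left out. The 0 came without tumour 239, where 13 had an unadjusted p under 0.05. Bins at -0.2 or lower in at least 3 tumours numbered 8 with all probes, 5 with probes well above background, 2 without deep probes, 4 of 8 at 2 Mb and 7 to 8 with 1 tumour left out. Genes called lower numbered 3 without deep probes and 3 to 7 with 1 tumour left out. Ptprd lost its call without deep probes, at -0.14, and without tumour 240, at -0.29, and ranged from -0.31 to -0.22 with 1 tumour left out. ENSMUST00000107365 turned to 0.0044 and Cdk5rap2 to -0.015 with normexp. ENSMUST00000143796, near 0 on 3 probes, turned to 0.48 without its deep probe, and to 0.0080 without tumour 239 and 0.055 without tumour 244, in a range from -0.058 to 0.055 with 1 tumour left out, while normexp gave -0.43. The cause of these changes was not tested, apart from those that follow from removing low probes or samples. Where tumour spots were not above background, the depth of a probe is only bounded. No paired analysis was possible because all tumours form 1 group set against 1 pool.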
